A study of Mus musculus with 12 samples.

Results

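The axon guidance ligands and receptors were taken as the protein-coding genes of the deposited table whose mouse symbol names a semaphorin of classes 3 to 7, a plexin, a neuropilin, a Robo receptor, a Slit, an Eph receptor, an ephrin, an Unc5 receptor, a netrin, a netrin-G protein or Dcc. Of 71 such genes among the 19775 of the table, 70 averaged 10 normalized counts or more across the 12 mice and were kept. The ephrin gene Efna4, with a mean of 9.05, was left out, and the member nearest above the limit was Epha1, with a mean of 17.9. The 70 members were 20 semaphorins, 9 plexins, 2 neuropilins, 4 Robo receptors, 3 Slits, 14 Eph receptors, 7 ephrins, 4 Unc5 receptors, 4 netrins, 2 netrin-G proteins and Dcc, which made 36 ligands and 34 receptors. The terms of the rule use no measured difference between genotypes, but the members were chosen with earlier results of these data known.

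Axon guidance molecules steer growing axons by attraction or repulsion. Slits repel axons that carry Robo receptors, semaphorins signal through plexins with or without a neuropilin, ephrins on one cell meet Eph receptor kinases on the next, and netrins attract through Dcc and repel through Unc5 receptors. Many of these genes stay active in the adult brain, where they take part in the formation and remodelling of synapses.

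RNA from the whole brains of 12 male C57BL/6N mice at about postnatal day 120 was sequenced. The mice were 4 wild-type (WT), 4 heterozygous Slc6a20a+/- (HT) and 4 homozygous Slc6a20a-/- (HM) animals from crosses of heterozygous parents, and the mutant allele lacks exon 3 of Slc6a20a, which encodes a transporter of proline and glycine. No other allele and no treatment was named. Genotypes were compared pairwise to ask how the transcriptome of the brain differs with 1 or no intact copy of the gene.

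Values are the deposited normalized counts, which had been scaled between mice and sum to between 33284951 and 33748623 per mouse, so their sums no longer show the depth. From the spacing of the lowest values, 1 read was worth between 0.931 and 1.12 normalized counts. The targeted gene had 679 ± 70.1 normalized counts in the WT mice, 345 ± 29.1 in the HT mice and 64.5 ± 9.95 in the HM mice (SD, n = 4), and the 3 genotypes did not overlap. Differences between genotypes are log2 fold changes on the log2(normalized count + 1) scale from limma, fitted over 18004 genes for either mutant genotype against WT and over 17986 genes for HM against HT, with standard errors (SE). P-values were adjusted over all of these genes by the Benjamini-Hochberg (BH) method and called at 0.05. All 70 members were tested in each comparison. The same 4 WT mice served both comparisons with WT, so the values of HT and HM mice against WT are not independent of each other.

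To compare genes, each member's mean over the 12 mice was divided by the median length of its transcripts. This length depends on which transcripts are annotated, so ranks on this scale are approximate. For Ntng1 it was 1468.5 bp, while the exons of the gene cover 8243 bases. On this scale, in normalized counts per kb, levels ran from 5.75 for Epha1 to 1634 for Sema7a, a membrane-anchored semaphorin, with a median of 253 over the 70 genes. The next highest levels were those of the receptor Epha4 (1332), the netrin-G protein Ntng1 (1271), Sema6b (1267), the ephrin-B ligand Efnb3 (1238) and the netrin receptor Unc5a (1178). Levels were unequal within families. Slit1 stood at 757 normalized counts per kb against 162 for Slit2, Robo2 at 451 against 72.6 for the endothelial receptor Robo4, and Plxna1 at 719 against 211 for Plxnb3. The neuropilins Nrp2 and Nrp1 were closer, at 260.3 and 210.1. The classical netrins had low levels, between 79.7 for Ntn1 and 99.9 for Ntn5, while both netrin-G genes were higher, with Ntng2 at 521. The lowest members of the semaphorin, ephrin and Unc5 families were Sema3b (48.1), Efna1 (65.2) and Unc5b (236), and Dcc stood at 138.

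**Figure D1:**
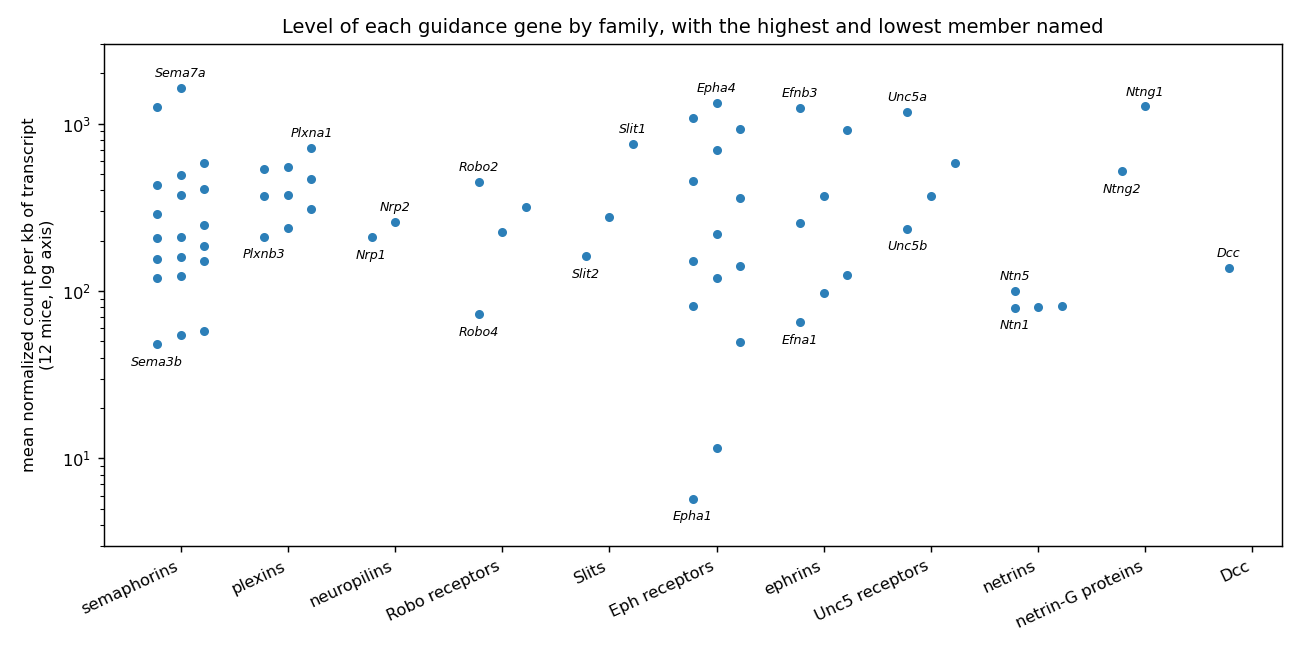
Mean normalized count per kb of transcript over the 12 mice (log axis) for each of the 70 guidance genes (points), by family on the horizontal axis. Sema7a is the highest at 1634 and Epha1 the lowest at 5.75, and the Eph receptors span nearly the whole range.

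No member passed the adjusted threshold in any of the 3 comparisons (limma). The study, which tested the same mice with DESeq2, lists Robo1 and Sema5a among the genes changed in HM mice at an adjusted p under 0.05. Over all genes, 0.00555% were called in HT against WT, 0.0111% in HM against WT and 0.00556% in HM against HT. At an unadjusted p under 0.05 (limma), 14 of the 70 members were higher and 3 lower in HT than in WT mice, while 3.16% of all genes tested were higher and 3.26% lower. In HM against WT, 16 members were higher and 0 lower, beside 3.93% and 3.05% of all genes. In HM against HT, 0 members were higher and 0 lower, beside 2.11% and 1.62% of all genes. The members' counts against WT were thus above the share of all genes on the higher side, in effects of at most 0.27 on the log2 scale in HM mice. The count in HT mice depended on single animals. It was 8 without WT replicate 1 (2.65% of all genes), 9 without WT replicate 3 (3.25%), 7 without HT replicate 1 (2.42%) and 6 without HT replicate 4 (2.17%). The count in HM mice stayed between 11 and 17 when any 1 mouse was left out, with 3.03% to 4.59% of all genes. Without a trend in limma's variance prior the higher counts were 6 in HT (2.48%) and 10 in HM mice (3.17%). A block for the leading digits of the animal number gave 2 lower members in HM mice (3.43%).

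Positive fold changes were more frequent than negative ones in each comparison, in 52 of 70 members in HT and 55 in HM mice compared with WT and 48 in HM mice compared with HT, where all genes gave 50.0%, 49.8% and 49.5%. The median log2 fold change over the members was 0.057, 0.087 and 0.025, against 0.0001, -0.0003 and -0.0009 over all genes tested. These are counts and medians over genes that share the same mice, and they carry no test. Receptors gave 8 higher and 2 lower members of 34 in HT mice and 11 higher and 0 lower in HM mice. Ligands gave 6 higher and 1 lower of 36 in HT mice and 5 higher and 0 lower in HM mice. Of all genes tested, 3.16% were higher and 3.26% lower in HT mice, and 3.93% and 3.05% in HM mice. The naming rule took 41 members, whose values are given family by family. The other 29 had log2 fold changes of -0.033 to 0.24 in HT and -0.019 to 0.22 in HM mice compared with WT and of -0.041 to 0.12 between HM and HT mice, with 23, 26 and 21 of them above 0.

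**Figure D2:**
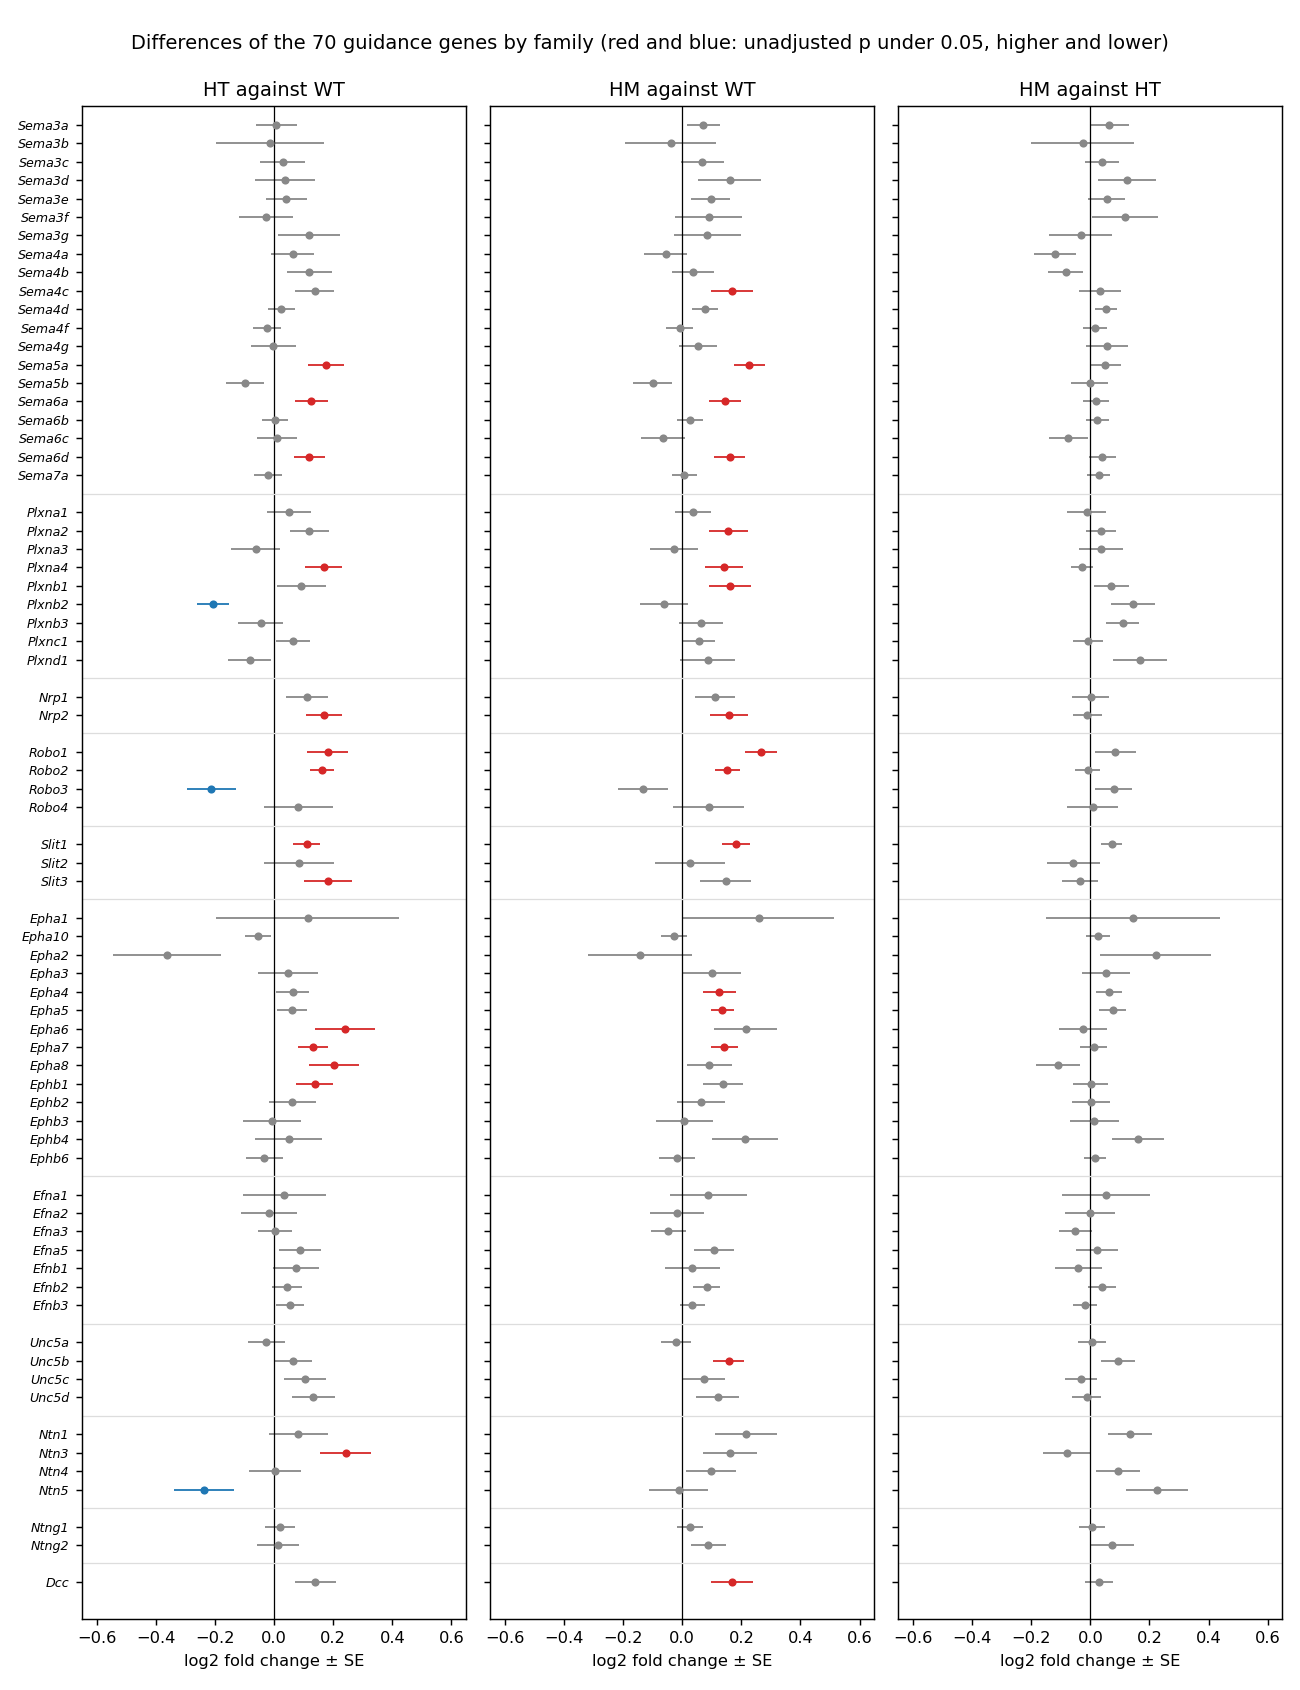
Log2 fold change ± SE (limma) of each of the 70 guidance genes by family, in 3 panels (HT and HM each against WT, then HM against HT), with an unadjusted p under 0.05 in red (higher) and blue (lower). There are 14 red and 3 blue points in the first panel, 16 red and no blue in the second and neither in the third.

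Seen mouse by mouse, the mean of log2(normalized count + 1) over all 70 members, each gene centred on its mean over the 12 mice, lay between -0.071 and -0.021 in WT mice, between -0.0088 and 0.019 in HT mice and between 0.023 and 0.051 in HM mice. The order was WT, HT, HM without overlap, though the highest HT and lowest HM mouse were close. Among families, the Eph receptors showed the same order, with -0.057 to -0.031 in WT, -0.018 to 0.014 in HT and 0.023 to 0.059 in HM mice. In the other families the genotypes overlapped, apart from the semaphorins, whose WT mice (-0.055 to -0.0049) lay below all HM mice (0.016 to 0.055). Of the 12 mice, the lowest value of a member was in a WT mouse for 47 members, in an HT mouse for 19 and in an HM mouse for 4, while over 18006 genes these shares were 38.9%, 30.2% and 30.9%. The highest value was in a WT mouse for 19 members, in an HT mouse for 21 and in an HM mouse for 30, beside 39.5%, 30.3% and 30.3% of all genes. WT replicate 1 alone was the lowest mouse for 18 members, and for 14.5% of all genes.

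**Figure D3:**
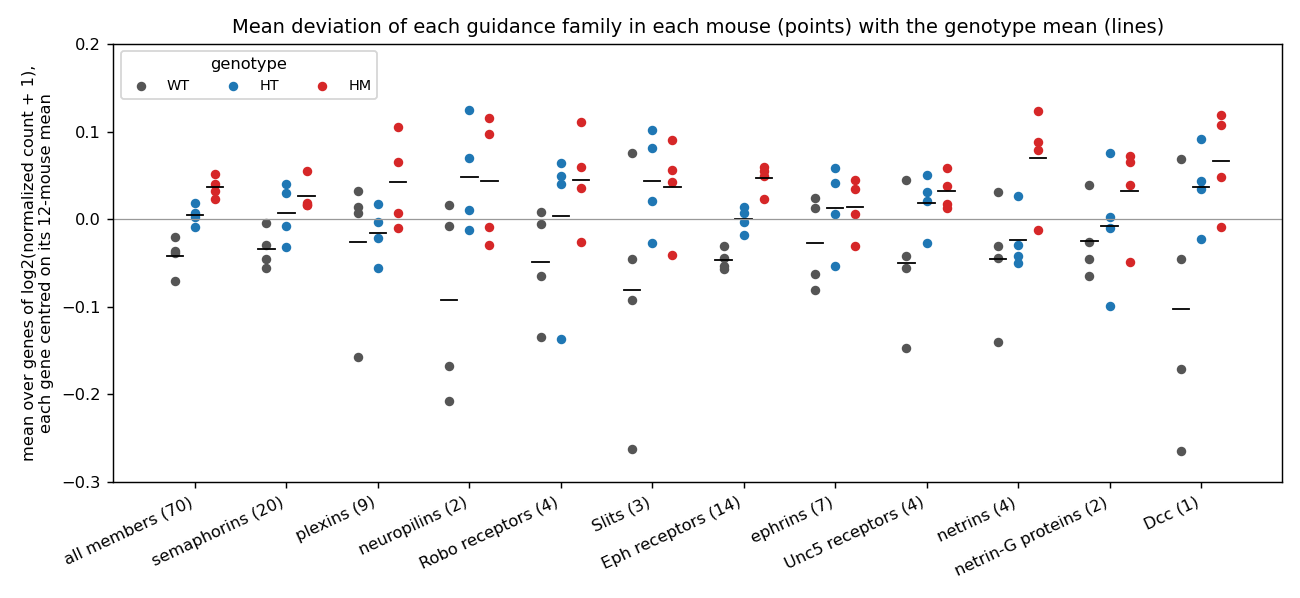
Mean over the genes of each family, with the number of genes in brackets, of log2(normalized count + 1) centred per gene, for each mouse (points) and as the genotype mean (lines), in WT (grey), HT (blue) and HM (red). Over all members the WT mice lie at -0.071 to -0.021 and the HM mice at 0.023 to 0.051, with HT mice between them, while single families scatter more widely.

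The start regions of 5 members, Robo1, Robo2, Sema5a, Epha5 and Epha7, are shown because these had the smallest p in HM mice among members that the RefSeq promoter table holds. They are the 250 bases before the transcription start nearest to the gene's start in GENCODE M21, from RefSeq on GRCm38.p6 and read 5′ to 3′. Capitals mark a GC box (GGGCGG, or CCGCCC on the other strand) or a CCAAT box (CCAAT, or ATTGG on the other strand).
Robo1 promoter (chr16:72662899-72663148, plus strand): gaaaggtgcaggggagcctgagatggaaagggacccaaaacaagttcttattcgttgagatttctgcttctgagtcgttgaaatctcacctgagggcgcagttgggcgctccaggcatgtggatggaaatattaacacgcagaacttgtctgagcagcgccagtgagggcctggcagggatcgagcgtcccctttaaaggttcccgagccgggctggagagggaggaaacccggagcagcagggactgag
Robo2 promoter (chr16:74411826-74412075, minus strand): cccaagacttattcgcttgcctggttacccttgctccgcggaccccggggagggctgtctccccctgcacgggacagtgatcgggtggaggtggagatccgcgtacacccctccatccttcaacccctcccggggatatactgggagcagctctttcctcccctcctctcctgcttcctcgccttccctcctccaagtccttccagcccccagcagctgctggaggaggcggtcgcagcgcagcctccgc
Sema5a promoter (chr15:32244563-32244812, plus strand): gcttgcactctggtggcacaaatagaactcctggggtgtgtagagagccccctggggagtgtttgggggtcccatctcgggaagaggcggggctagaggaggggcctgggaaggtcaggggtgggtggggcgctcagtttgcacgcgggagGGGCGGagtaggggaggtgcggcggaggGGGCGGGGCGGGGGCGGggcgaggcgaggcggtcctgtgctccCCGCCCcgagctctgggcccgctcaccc
Epha5 promoter (chr5:84417383-84417632, minus strand): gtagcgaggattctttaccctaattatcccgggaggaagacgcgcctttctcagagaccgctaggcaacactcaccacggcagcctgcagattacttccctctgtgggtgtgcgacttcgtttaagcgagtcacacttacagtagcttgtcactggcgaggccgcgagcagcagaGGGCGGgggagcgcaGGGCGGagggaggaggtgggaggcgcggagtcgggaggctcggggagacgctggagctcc
Epha7 promoter (chr4:28812881-28813130, plus strand): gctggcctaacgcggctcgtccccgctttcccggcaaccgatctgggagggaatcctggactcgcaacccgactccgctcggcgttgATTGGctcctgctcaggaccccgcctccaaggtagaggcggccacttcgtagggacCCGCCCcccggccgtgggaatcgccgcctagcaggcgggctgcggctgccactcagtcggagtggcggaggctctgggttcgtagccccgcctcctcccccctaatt
The Robo1 start lies 354843 bases inside the gene's span in GENCODE M21, and the other 4 lie at most 3 bases from the gene's start. Sema5a held 5 GC boxes, some overlapping, Epha5 held 2, and Epha7 held 1 beside 1 CCAAT box, while Robo1 and Robo2 held neither motif and none of the 5 held TATAAA or the cyclic AMP response element TGACGTCA. The table held 76 promoters of 60 of the 70 members. On either strand, a GC box occurred in 71.1% of these and in 42.6% of the 21263 promoters of protein-coding genes, CCAAT in 26.3% and 35.4%, TATAAA in 2.63% and 11.6%, and TGACGTCA in 1.32% and 1.92%. The members' promoters had a median GC content of 64.4% and 15.5 CG pairs, against 55.6% and 10 for all. A match of letters is a description and does not show a site in use.

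The Slit and Robo genes held 3 of the 4 members with the smallest p in HM mice, the other one being Sema5a. Positions are in GRCm38. Robo1 (chr16:72308306-73046095, plus strand), a receptor through which Slits repel axons, had 1439, 1601, 1587 and 1477 normalized counts in the 4 WT mice, 1837, 1849.7, 1485 and 1769 in the HT mice and 1851, 1698, 1907 and 1886 in the HM mice. Every HM mouse was above every WT mouse, and 3 of the 4 HT mice were too, with HT replicate 3 among the WT values. The means were 1526 ± 80.4, 1735 ± 171 and 1835 ± 94.4 (SD, n = 4). Robo1 was 20.3% higher in HM than in WT mice (log2 fold change 0.27, SE 0.05, BH-adjusted p = 0.553, limma), and its unadjusted p ranked 6 among the 18004 genes, counted from the smallest. The difference between HT and WT was 0.18 (SE 0.07, BH-adjusted p = 0.77, limma), at rank 490. Without any 1 mouse the HM value stayed between 0.24 and 0.30.

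Robo2 (chr16:73891839-74411825, minus strand), the second neuronal Slit receptor and the neighbour of Robo1 on chromosome 16, had 3454, 3389, 3279 and 3377 normalized counts in WT mice, 3756, 3800.1, 3584 and 3968 in HT mice and 3631, 3698, 3692 and 3995 in HM mice. All 8 mutant mice were above all 4 WT mice, and the mutant genotypes overlapped each other. Its means were 3375 ± 72.5, 3777 ± 158 and 3754 ± 164 (SD, n = 4), a difference of 0.16 in HT (SE 0.04) and 0.15 in HM mice (SE 0.04). The BH-adjusted p-values (limma) were 0.74 and 0.643, and the unadjusted ones ranked 46 and 78 among all genes.

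Slit1 (chr19:41600257-41743665, minus strand), the Slit ligand with the highest level here, had 3327, 3783, 3639 and 3533 normalized counts in WT mice, 3850.4, 3856, 3820.0 and 3866 in HT mice and 4092, 4135, 4121 and 3836 in HM mice. The WT mice were below all mutant mice, and 3 of the 4 HM mice were above all HT mice. Slit1 was 7.89% higher in HT (log2 fold change 0.11, SE 0.04) and 13.4% higher in HM mice (0.18, SE 0.05) than in WT mice. The BH-adjusted p-values (limma) were 0.77 and 0.561, and the ranks of the unadjusted ones 621 and 62. The other Slit genes differed less clearly. Slit2 had log2 fold changes of 0.083 and 0.026, with an SE of 0.12 in both comparisons, and 1 WT mouse at 1627 normalized counts against 1083 to 1125 in the other 3. Slit3 was among the 14 higher members in HT mice.

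Robo3, which in crossing commissural axons holds back the response to Slits, went the other way. Its normalized counts were 1522, 1984, 1483 and 1586 in WT mice, 1439.5, 1477, 1272 and 1458 in HT mice and 1622, 1396, 1537 and 1411 in HM mice. Every HT mouse was below every WT mouse, and 1 WT mouse was far above the rest. The log2 fold change was -0.21 for HT, with an SE of 0.08 and a BH-adjusted limma p of 0.77, and -0.13 for HM, with an SE of 0.09 and an adjusted p of 0.787. Without WT replicate 2 these were -0.12 and -0.039, so the size rested largely on that mouse. Robo4, found mainly in blood vessels, had log2 fold changes of 0.082 and 0.089 with SEs of 0.12 and 0.12.

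**Figure D4:**
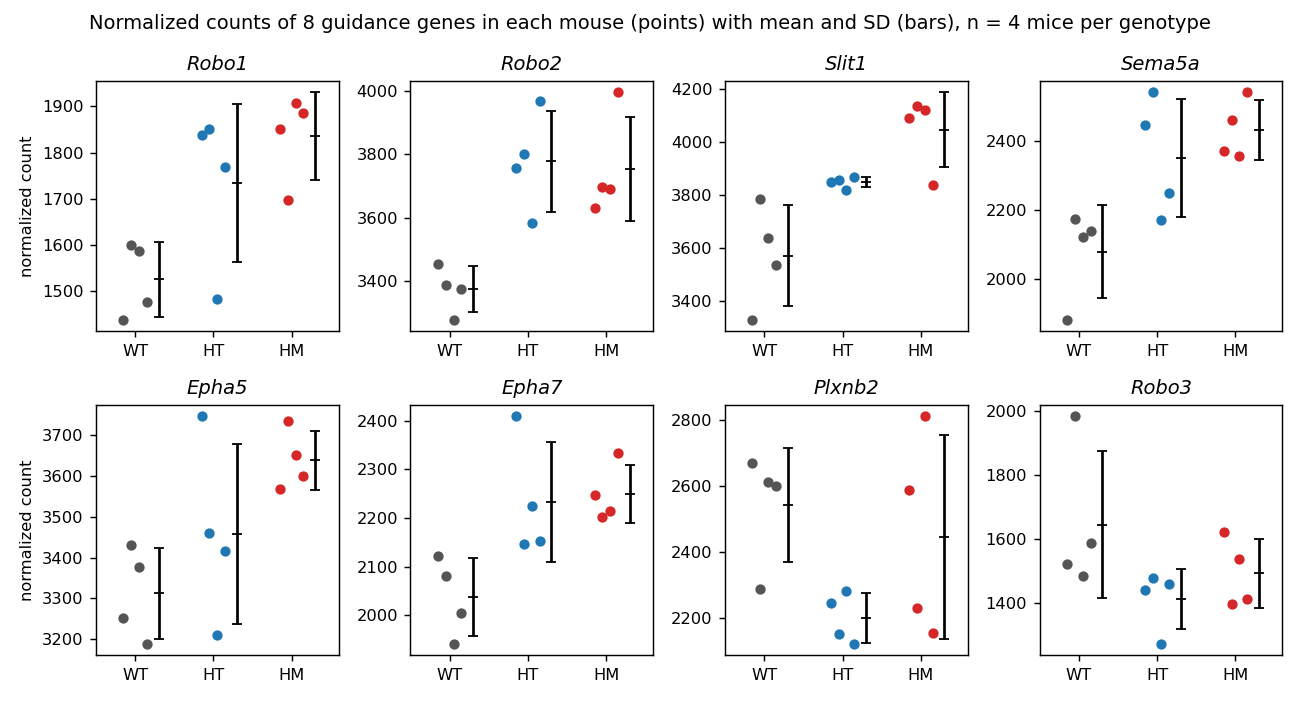
Normalized counts of 8 guidance genes in each mouse (points) with the genotype mean and SD (bars), n = 4 mice per genotype, on vertical axes that do not start at 0. Robo1, Robo2, Slit1, Sema5a, Epha5 and Epha7 have every HM mouse above every WT mouse, and Plxnb2 and Robo3 have every HT mouse below every WT mouse.

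In the semaphorin family, Sema5a (chr15:32244810-32696341, plus strand), a membrane-spanning semaphorin, had 1883, 2176, 2125 and 2140.2 normalized counts in WT mice, 2447, 2542, 2172 and 2251 in HT mice and 2372, 2462, 2357 and 2542 in HM mice. All HM mice were above all WT mice, while the lowest HT mouse lay just under the highest WT mouse. It was 17.1% higher in HM than in WT mice (log2 fold change 0.23, SE 0.05, BH-adjusted p = 0.553, limma, rank 23 by unadjusted p). For HT the log2 fold change was 0.18 (SE 0.06, BH-adjusted p = 0.768, limma, rank 282). Its relative Sema5b had log2 fold changes of -0.10 and -0.10 (SE 0.06 and 0.07), opposite in sign to those of Sema5a.

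Sema6d, a membrane-spanning ligand of A plexins, ran from 2014 to 2342 normalized counts in WT mice, from 2268 to 2488 in HT mice and from 2302 to 2539 in HM mice. The genotypes overlapped through 1 high WT mouse, and the log2 fold change was 0.12 in HT and 0.16 in HM mice (SE 0.05 and 0.05, BH-adjusted p = 0.77 and BH-adjusted p = 0.655, limma). Of the 4 class 6 semaphorins, 2 had an unadjusted p under 0.05 in HT and 2 in HM mice, Sema6a and Sema6d each time. Both were higher, as were 3.16% of all genes in HT and 3.93% in HM mice. Sema6c had 0.0095 and -0.066. The 6 class 4 semaphorins gave 0 in HT and 1 in HM mice, Sema4c, while Sema4a had 0.063 and -0.057 and Sema4b 0.12 and 0.036. None of the 7 class 3 semaphorins, the secreted ligands of neuropilin and plexin complexes, had an unadjusted p under 0.05 against WT, and their median log2 fold change was 0.029 in HT and 0.085 in HM mice. Sema3b was the most variable of the family between mice of a genotype, with an SD of 0.30 on the log2 scale, and had -0.014 and -0.04. Sema7a, the member with the highest level, had -0.02 (SE 0.05) and 0.0075 (SE 0.04).

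Among the receptors of semaphorins, Plxnb2 (chr15:89155549-89180788, minus strand), a B plexin that binds class 4 semaphorins, had the smallest p of the members in HT against WT. Its normalized counts were 2669, 2287, 2613 and 2601 in WT mice, 2245, 2150.3, 2282 and 2122 in HT mice and 2588, 2229, 2813 and 2153 in HM mice. Every HT mouse was below every WT mouse, by a narrow margin for 1 WT mouse, and the HM mice spanned both groups. The means were 2542 ± 173, 2199.9 ± 75.9 and 2446 ± 309.6 (SD, n = 4). The log2 fold change was -0.21 for HT, with an SE of 0.05 and a BH-adjusted limma p of 0.74, and -0.062 for HM, with an SE of 0.08 and an adjusted p of 0.901.

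Plxna4, a receptor for class 3 and class 6 semaphorins, had 3842, 4846, 4715 and 4519 normalized counts in WT mice, 5043, 4864, 4951 and 5211 in HT mice and 5057, 5043, 4677 and 4928 in HM mice. The HT mice were all above the WT mice and the HM mice were not, because of HM replicate 3. Its log2 fold change was 0.17 in HT and 0.14 in HM mice (SE 0.06 and 0.06, BH-adjusted p = 0.77 and BH-adjusted p = 0.701, limma), and without WT replicate 1 it was 0.10 and 0.07. Plxna2 and Plxnb1 also had an unadjusted p under 0.05 in HM mice, which made 3 of the 9 plexins higher, beside 3.93% of all genes. Plxna3, on the X chromosome, had -0.063 and -0.028, Plxnd1 -0.083 and 0.086, and Plxna1 0.049 and 0.037. Plxnb3 had -0.046 and 0.064 (SE 0.08 and 0.07).

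Nrp2, the co-receptor for Sema3f, had 1440.3, 1439.8, 1687 and 1652 normalized counts in WT mice, 1761, 1795, 1766 and 1659.8 in HT mice and 1811, 1815, 1616 and 1691 in HM mice. WT replicates 1 and 2 were well below all other mice, while WT replicates 3 and 4 lay among the mutant mice. The log2 fold change was 0.17 for HT, with an SE of 0.06 and a BH-adjusted limma p of 0.768, and 0.16 for HM, with an SE of 0.06 and an adjusted p of 0.673. Nrp1 had 0.11 and 0.11, with an SE of 0.07 in both.

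Of the 9 EphA receptors, which bind the membrane-anchored ephrin-A ligands, 3 had an unadjusted p under 0.05 in HT (Epha6, Epha7 and Epha8) and 3 in HM mice (Epha4, Epha5 and Epha7), all higher. Of the 5 EphB receptors there were 1 in HT mice, Ephb1, and 0 in HM mice, beside 3.16% and 3.93% of all genes higher. Whether the classes differ was not tested. Ephb4, a receptor of vessel formation, had 0.05 and 0.21 (SE 0.11 and 0.11). Epha5 (chr5:84054761-84417382, minus strand), which guides topographic maps, had 3253, 3431, 3377 and 3189 normalized counts in WT mice, 3747, 3461, 3209 and 3416 in HT mice and 3567, 3734, 3652 and 3601 in HM mice. The HM mice were all above the WT mice, and the HT mice ran from near the lowest WT to above the highest HM value. It was 9.87% higher in HM mice than in WT mice (log2 fold change 0.14, SE 0.04, BH-adjusted p = 0.643, limma, rank 118) and had a log2 fold change of 0.061 for HT (SE 0.05, BH-adjusted p = 0.881).

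Epha7 (chr4:28813131-28967499, plus strand), another EphA receptor of topographic mapping, had 2122, 2082, 1942 and 2006 normalized counts in WT mice, 2409, 2146, 2224 and 2153 in HT mice and 2247, 2202, 2215 and 2334 in HM mice. All mutant mice were above all WT mice. The log2 fold change was 0.13 for HT, with an SE of 0.05 and a BH-adjusted limma p of 0.77, and 0.14 for HM, with an SE of 0.04 and an adjusted p of 0.645. Epha4, the Eph receptor with the highest level, had 0.062 and 0.13 with SEs of 0.06 and 0.06. Epha8 had 0.20 and 0.092, and the kinase-inactive receptor gene Epha10 -0.055 and -0.028.

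Epha2 had few counts, at 43.7, 49.9, 57.3 and 50.4 in WT mice, 42.0, 43.1, 29.9 and 41.4 in HT mice and 43.0, 38.4, 55.4 and 45.8 in HM mice. Every HT mouse was below every WT mouse, yet the fold change of -0.36, the largest in size of any member in the 3 comparisons, had an SE of 0.18 and a BH-adjusted p of 0.783 (limma). Epha1 was lower still, between 11.5 and 26.5 normalized counts in all mice, where a few reads decide a value. It had 0.11 and 0.26, and its 95% interval in HM mice ran from -0.29 to 0.81. None of the 7 ephrins had an unadjusted p under 0.05 in either comparison. Their log2 fold changes lay between -0.017 and 0.087 in HT mice and between -0.047 and 0.11 in HM mice. Among them Efnb3, a midline ephrin-B, had 0.054 and 0.035 (SE 0.05 and 0.04), Efna1 0.035 and 0.088, and Efna3 0.0036 and -0.047.

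Of the netrins and their receptors, Ntn5 and Ntn3 lay apart in HT mice, in opposite directions. Ntn5 had 172, 155, 170.3 and 167 normalized counts in WT mice, 135, 129.9, 144 and 155 in HT mice and 154, 183, 153 and 171 in HM mice. Its HT mice were all below its WT mice, the closest pair by under 1 normalized count, and its HM mice spanned the WT values. The log2 fold change was -0.24 for HT (SE 0.10, BH-adjusted p = 0.77, limma) and -0.013 for HM (SE 0.10). Ntn3 had 418, 389, 327 and 365 in WT mice and 472, 462, 427 and 409 in HT mice, with 3 of the 4 HT mice above every WT mouse. This was a log2 fold change of 0.24 (SE 0.09, BH-adjusted p = 0.768, limma), and the value for HM was 0.16. Exons of Sec1 on the opposite strand cover 23.4% of the exon bases of Ntn5, and exons of 2 other genes cover 4.46% of those of Ntn3. The study's methods name the library kit but do not state whether it marks strand. If it does not, strand cannot tell these reads apart, so both values are uncertain. The same holds for Efna3, Plxna1, Sema4c and Epha1, of whose exon bases 14.1%, 10.7%, 7.27% and 6.01% lie in exons of a gene on the opposite strand. Of the exon bases of Ntng2, 14.0% lie in exons of another gene on the same strand, which makes its value uncertain as well.

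Ntn1, the attractant of commissural axons, had log2 fold changes of 0.082 and 0.22 with an SE of 0.10 and 0.11. Its receptor Dcc had 869, 1096, 1012 and 928 normalized counts in WT mice, 1113, 1076, 1028 and 1069.7 in HT mice and 1080.2, 1125, 1038 and 1134 in HM mice. Among the WT mice, 3 were below all mutant mice and 1 lay among them, and the log2 fold change was 0.14 for HT (SE 0.07) and 0.17 for HM (SE 0.07, BH-adjusted p = 0.673, limma). Unc5b, which turns netrin into a repellent and is also a vascular receptor, had 1049, 1022, 1041 and 1146 in WT mice, 1245, 1091, 1072 and 1054 in HT mice and 1231, 1193, 1182 and 1141 in HM mice. Its HM mice were above 3 of the 4 WT mice, which gave 0.16 on the log2 scale (SE 0.05, BH-adjusted p = 0.655, limma) against 0.065 in HT mice. Unc5a had -0.027 and -0.022. The netrin-G genes, whose products bind Lrrc4 family proteins at synapses, stayed close to 0 in HT mice, with 0.02 for Ntng1 and 0.013 for Ntng2, and had 0.025 and 0.088 in HM mice.

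The groups of HT and WT mice did not overlap for 5 members that were higher (Robo2, Slit1, Plxna4, Epha7 and Sema4c) and 4 that were lower (Plxnb2, Robo3, Ntn5 and Epha2), where 1.82% and 1.91% of all genes were separated in these directions. HM and WT mice did not overlap for 8 higher members (Robo1, Robo2, Slit1, Sema5a, Epha5, Epha7, Sema4c and Sema3a) and 0 lower ones, beside 2.41% and 1.81% of all genes. With 4 mice against 4, full separation by itself gives the exact two-sided permutation test of a single gene its smallest p, 0.0286. This p therefore adds nothing to the separation. HM and HT mice were separated for 1 member, Ephb4, which was higher, beside 1.24% of all genes higher and 1.14% lower.

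Between the mutant genotypes the differences were small and none of the 70 members had an unadjusted p under 0.05. All 70 of the 95% intervals of the difference held 0. Their median half-width was 0.14 on the log2 scale and the outermost bounds were -0.49 and 0.78, so differences of a size seen against WT lie inside most intervals. The smallest p was that of Ntn5, with a log2 fold change of 0.22 in HM against HT (SE 0.10, BH-adjusted p = 1, limma, 95% interval -0.003 to 0.45). Slit1 followed with 0.072 (95% interval -0.0041 to 0.15), Plxnb2 with 0.14 (95% interval -0.014 to 0.30) and Plxnb3 with 0.11 (95% interval -0.011 to 0.23). Ephb4 had 177, 202, 197 and 197 normalized counts in HT mice and 234, 204, 220.2 and 208 in HM mice, a difference of 0.16 (SE 0.09). Plxnd1, another vascular receptor, had 0.17 and Ntn1 0.13. On the lower side, Sema4a had -0.12 (95% interval -0.27 to 0.033), Epha8 -0.11 and Sema4b -0.083. With a block for the leading digits of the animal number, under which 3 mice set the fold changes, the directions of Slit1 (-0.0067), Plxnb2 (-0.029), Epha8 (0.046) and Sema4b (0.015) turned. Robo1 was 0.085 (95% interval -0.062 to 0.23) and Sema5a 0.051 (95% interval -0.063 to 0.16).

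The members are longer and richer in GC than most genes. Their median transcript length was 4469 bp, their median genomic span 57.5 kb and their median GC content 56.6%, against 2586 bp, 20.5 kb and 50.2% for the genes tested. Across the 70 members, the Spearman rank correlation between the log2 fold change and transcript length was 0.328 for HT and 0.377 for HM against WT, and with GC content it was -0.400 and -0.406. Over all genes these were 0.211, 0.225, -0.043 and -0.019. The points share the same mice and the values describe these libraries. When each mouse was corrected for length and GC content, 10 members were higher and 2 lower in HT mice and 11 higher and 0 lower in HM mice at an unadjusted p under 0.05, where the same correction gave 3.43% higher and 2.82% lower in HT and 3.56% and 2.82% in HM mice over all genes. The members' median log2 fold changes were then 0.047 and 0.066. Robo1 then had 0.23 and Sema5a 0.18 in HM mice against WT.

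**Figure D5:**
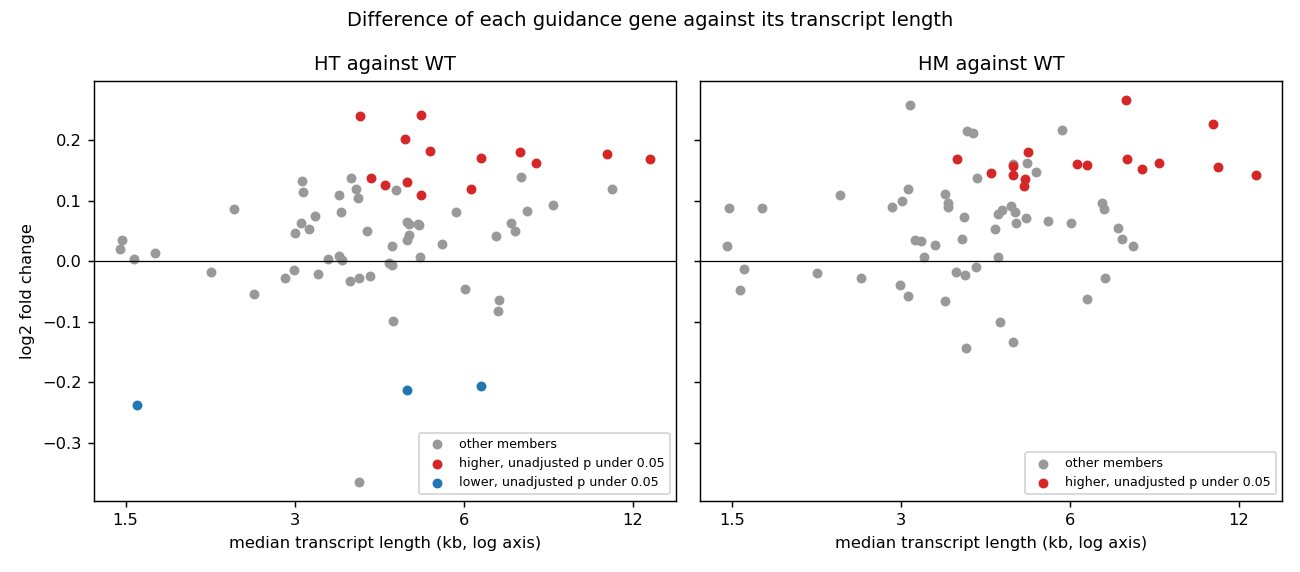
Log2 fold change of each guidance gene against the median length of its transcripts (kb, log axis) in HT (left) and HM (right) against WT, with an unadjusted p under 0.05 in red (higher) or blue (lower). The higher members lie mostly among the longer transcripts, with a Spearman rank correlation of 0.328 and 0.377 over the 70 genes.

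Markers of cell types and regions differed between these brains as well. Of the olfactory bulb list, 11 of the 15 markers tested were higher in HM than in WT mice at an unadjusted p under 0.05, with a median log2 fold change of 0.44, and the summed level of the list ran from 13163 to 14538 normalized counts in WT, from 13495 to 14148 in HT and from 14842 to 16748 in HM mice. Of 12 endothelial and pericyte markers 4 were higher in HM mice (median 0.15, summed levels 9149 to 11560.2 in WT and 10721 to 11584 in HM), of 12 choroid plexus markers 3 were lower (median -0.39, summed levels 25950.3 to 32978 and 17542 to 30738), and of 8 microglial markers 2 were lower (median -0.090, summed levels 9057 to 10601 and 8634 to 9732). In HT against WT, all 5 erythrocyte markers tested were lower (median -0.83, summed levels 7783 to 21987 in WT and 6499 to 8721 in HT). Of 10 neuronal markers, 1 was higher in HT and 2 in HM mice, with medians of 0.032 and 0.049. The lists for meninges, cerebellum, oligodendrocytes and astrocytes had at most 1 marker in either direction against WT. Between HM and HT mice, 12 olfactory bulb markers were higher and 1 lower, 5 of 6 erythrocyte markers were higher, with HM mice at 5904 to 29031 normalized counts for the summed erythrocyte list, and 3 of 8 microglial markers were lower (median -0.14, summed levels 9505 to 10404 in HT mice). No marker passed the adjusted threshold (limma, BH), and no marker found was at 0 in all mice. The part of these differences in the values of the guidance genes was not tested. In whole-brain RNA, fewer cells of a type and less RNA per cell cannot be told apart.

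Genes that act downstream of or beside these receptors, a list of 56 that includes collapsin response mediators, cytoskeletal regulators and adhesion molecules, were counted in the same way. In HT against WT, 4 were higher and 0 lower at an unadjusted p under 0.05, and in HM against WT 9 were higher and 0 lower, with medians of 0.031 and 0.049 on the log2 scale. The shares of all genes were the 3.16% higher and 3.26% lower in HT and 3.93% and 3.05% in HM mice given above. The smallest p in HT mice were those of the kinase Gsk3b (0.15, SE 0.04), the adhesion molecule Chl1 (0.14, SE 0.05) and the mediator Dpysl3 (0.14, SE 0.05), and on the lower side those of Trio (-0.11), Chn2 (-0.047) and Cntn2 (-0.039). In HM mice they were those of Crmp1, which mediates the response to Sema3a (0.14, SE 0.04), the netrin receptor Neo1 (0.14, SE 0.05) and Gsk3b (0.13, SE 0.04), and on the lower side Dpysl4 (-0.066), Trio (-0.063) and Ptk2 (-0.07). Between HM and HT mice 1 gene, the actin-binding Ablim3, was higher (0.16, SE 0.05) and 0 were lower, and the next smallest p were those of Crmp1 (0.058) and Tiam1 (0.057) above 0 and of Dpysl4 (-0.092), Farp2 (-0.12) and Srgap1 (-0.041) below it. None of the 56 passed the adjusted threshold (limma, BH).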

How the data were processed

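Whole-brain RNA of 12 mice was sequenced, 4 per genotype, grouped by the genotype in the sample titles. According to the study's methods and the submitters' processing notes, the authors estimated transcript abundance with Salmon 1.1.0 on GRCm38 with GC bias correction, imported it with tximport and normalized it with DESeq2 1.30.1; the annotation release was not given in the sources used here. The deposited signal is this normalized count per gene and mouse. Whole reads could not be recovered from it, since at most 24.2% of the values under 20 in any mouse were whole multiples of a read (tolerance 0.02 reads), so no count model was fitted. Each value comes from a separate mouse; litters and days are not in the labels.

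Here, limma 3.58.1 in R 4.3.3 was run on log2(normalized count + 1), with the trended prior for the variance (limma-trend), on the 8 mice of each comparison and genes that averaged 10 or more in them. P-values were adjusted over all genes by Benjamini-Hochberg, with a threshold of 0.05, and the test was tested on simulated data. Further steps used Python 3.11.15, numpy 2.4.6, pandas 2.3.3 and scipy 1.17.1. GENCODE M21 gave symbols, positions, transcript lengths and GC content, in which 19758 of the 19775 identifiers were found. Alternatives were a pseudocount of 0.1, 2 other filters, a fit of all 12 mice, blocks for replicate number or for the leading digits of the animal number in the column names, quantile normalization, a length and GC correction (loess, span 0.4), no variance trend, and leaving out each mouse.

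The members, lists and rules were chosen with earlier results of these data known. Members named were, for each comparison, the 8 with the smallest p in each direction and any with p under 0.01, and the highest and lowest per kb in each family. Robo1 and Sema5a were named because the study lists them as changed in HM mice. Of the signalling list, the 3 smallest p in each direction were named. Other members named beside a count were chosen after their values were seen.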

Additional observations from a re-analysis of the deposited data

Results flagged for a closer look

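Among the members named by rule, 7 of 123 groups of 4 mice (5.69%) held 1 mouse far from the other 3, by a test that flags about 1 in 20 groups by chance. In WT mice, Slit2 had 1627 normalized counts in replicate 3 against 1083 to 1125 in the others, and Plxna1 had 4565 in replicate 1 against 5397 to 5533. In HT mice, replicate 3 was low for Epha2 (29.9 against 41.4 to 43.1) and for Ntng1 (1744 against 1901 to 1928), and replicate 2 was low for Plxnb3 (1119 against 1255 to 1269). In HM mice, Sema4a was high in replicate 3 (1951 against 1632 to 1685), and Slit1 was low in replicate 4 (3836 against 4092 to 4135). The 7 values came from 6 different mice.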

How the results depend on the processing

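No member passed the adjusted threshold under any alternative, all of which were limma fits. Direction was followed for the members picked by p in each comparison, with Robo1 and Sema5a, which made 16, 16 and 18 members. Of their 850 values under alternatives, 841 kept their direction and 9 reversed, and the lowest BH-adjusted p (limma) was 0.245. Picking by small p favours a kept direction. Other named values were not in this count. Some of them turned with the animal-number block, such as those of Plxnd1 (-0.075) and Efna1 (-0.038) in HM against WT. The count of higher members in HT against WT was 9 with the animal-number block (3.0% of all genes) and 6 with an untrended prior (2.48%). With 1 mouse left out it ran from 6 to 14 (2.17% to 3.65%). The count of lower members then ran from 1 to 3 (2.64% to 3.4%) and the median from 0.044 to 0.068. In HM against WT the higher count was 10 with the untrended prior (3.17%) and ran from 11 to 17 with 1 mouse left out (3.03% to 4.59%). The lower count was 2 with the animal-number block (3.43%) and ran from 0 to 1 with 1 mouse left out (2.55% to 3.51%). The median was 0.066 with the length and GC correction and ran from 0.066 to 0.087 with 1 mouse left out. In HM against HT the higher count was 1 in the fit of 12 mice (1.82%) and 2 with the untrended prior (2.21%). With 1 mouse left out the higher count ran from 0 to 3 (2.02% to 2.23%) and the lower from 0 to 1 (1.56% to 2.03%). The medians were then 0.015 to 0.031. The replicate numbers did not pair the mice, since the deviations of same-numbered mice correlated by -0.066 to 0.087 in 12 pairs, and with a replicate block the counts were 12 higher (2.94%) and 2 lower (3.49%) in HT, 13 (3.43%) and 0 (2.67%) in HM, and 2 (1.86%) and 1 (1.45%) in HM against HT. Under the animal-number block, in which few mice carry a comparison, Epha2 reversed in HM against WT (0.11), and in HM against HT so did Epha5 (-0.0001), Epha8 (0.046), Plxnb2 (-0.029), Sema4b (0.015), Slit1 (-0.0067) and Slit2 (0.17). With 1 mouse left out, Plxna3 in HT against WT ran from -0.12 to 0.015, reversing without WT replicate 2, and Slit2 in HM against HT from -0.13 to 0.0015, reversing without HT replicate 2. The cause was not tested. With 4 mice per genotype, differences of the size seen in most members lie near or below what the spread between mice can resolve.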

Other observations

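The spread between mice of 1 genotype was compared without matching for level. The members' median level was 1352 normalized counts, against 527 over the genes tested. The median SD within a genotype was 0.104 on the log2 scale over the 70 members and 0.119 over the 18006 genes that averaged 10 or more. Among families the medians ran from 0.078 for the netrin-G genes to 0.134 for the Slits, and the most variable single members were Epha1 (0.37), Sema3b (0.30) and Slit2 (0.21).

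Of the 70 members, 7 lie on chromosome 9, as does Slc6a20a (chr9:123634770-123678885). The nearest was Plxnb1, 14.5 Mb away, with a log2 fold change of 0.16 in HM against WT mice. Sema3f, at 15.9 Mb, and its neighbour Sema3b had 0.089 and -0.04, Ephb1 at 21.3 Mb had 0.14, and Sema7a at 65.7 Mb had 0.0075. Robo3 and Robo4, adjacent at 86.2 Mb, had -0.13 and 0.089.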
